A study of Rattus norvegicus with 9 samples.

Results

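The baseline transcriptome of the pubococcygeus was described from the 3 libraries of untouched rats, out of 9 libraries in the series. These blank libraries were chosen by their label alone and by no measured value. They come from female Sprague-Dawley rats that had no operation and no treatment. In the study, 24 rats were randomised to 3 groups of 8: blank rats, rats with a model of stress urinary incontinence (both ovaries removed and the vagina distended), and rats with the same model followed by electrical stimulation of the pelvic floor through the vagina. Only blank libraries were used here, and nothing was compared between groups. The age of the rats and the relation of the 3 libraries to the 8 blank rats are not given in the sources used here, so the spread between libraries may be partly technical. Whole muscle was lysed, so RNA of every cell type in it was measured together.

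The pubococcygeus is a striated muscle of the pelvic floor that runs from the pubis towards the tail and closes the pelvic outlet below the bladder, vagina and rectum. Striated muscle fibres are slow or fast according to the myosin they carry, and most sarcomere proteins exist as a slow and a fast form made from separate genes. Slow fibres contract slowly, resist fatigue and rely on mitochondria, while fast fibres contract quickly and rely more on glycogen and glycolysis. A muscle holds other cells beside its fibres: endothelium and pericytes of its vessels, fibro-adipogenic progenitors in its connective tissue, satellite cells that repair fibres, Schwann cells of its nerves, and macrophages.

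The 3 libraries did not have equal depth or content. Blank 1 held 50833480 counts, blank 2 held 121185745 and blank 3 held 96540268. Genes on the mitochondrial genome took 32.9% of the counts in blank 1, 17.2% in blank 2 and 16.2% in blank 3, a mean of 22.1% ± 9.39 (SD, n = 3 libraries, as for every mean below). Without blank 1 the mean was 16.7%. Levels are therefore given as nuclear TPM, which is the deposited FPKM rescaled so that all rows off the mitochondrial genome sum to 1000000 in each library. Rows that RefSeq classes as ribosomal RNA summed to 13478 TPM in blank 1, 746 in blank 2 and 304 in blank 3. They were found by symbol, so rows without a symbol could not be classed. A row of that kind had a similar order, with 6083, 341 and 125 TPM, and is not in these sums. Rows on chromosome Y summed to between 0.138 and 0.223 CPM (counts scaled to the same total in each library), where 3 counts of a library correspond to 0.0248 to 0.0590 CPM. That floor covers counting error only.

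Agreement between libraries was much closer for blanks 2 and 3 than for either with blank 1. Across 12441 nuclear rows with a mean of at least 1 TPM, the Pearson correlation of log2 levels was 0.972 between blanks 2 and 3, 0.903 between blanks 1 and 2 and 0.888 between blanks 1 and 3. These correlations run over genes of the same libraries, which are not independent replicates. The share of rows that differed by more than 2-fold was 4.12% between blanks 2 and 3, against 26.7% and 28.1% for the pairs with blank 1. Counts of no pair were equal within sampling noise (chi-square per degree of freedom 104.7 to 548), as those of a library deposited again would be.

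Blank 1 was more than 2-fold higher than both other libraries in 5.92% of rows and more than 2-fold lower in 15.1%. TMM factors of edgeR, estimated on nuclear counts, were also applied on top of nuclear TPM. These factors move blank 1 up by 0.21 log2 against the mean of the other libraries. With them the split became 9.22% higher and 10.5% lower. By nuclear TPM alone, the shares for blank 2 were 0.611% higher and 0.386% lower. For blank 3 they were 1.32% higher and 1.18% lower. Every count of genes apart in blank 1 has to be read against these shares of all rows.

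Gene length went along with the place of blank 1. Length was derived from counts over FPKM, so values in kb hold only up to a factor common to all genes. Genes were divided by this length into 5 classes of equal size. In the class with the shortest transcripts (median 1.23 kb) the median of blank 1 lay at -0.35 log2 from the mean of the 3 libraries, and in the longest class (6.72 kb) at 0.03. The share of rows more than 2-fold lower in blank 1 fell over the classes from 27.5% through 19.4%, 13.6% and 9.35% to 5.76%. The share more than 2-fold higher lay between 4.84 and 7.66%. The medians of blanks 2 and 3 lay close together, at 0.18 and 0.16 log2 in the shortest class and at -0.02 and 0.01 in the longest. The part of depth and of the mitochondrial and ribosomal RNA shares in the place of blank 1 was not tested.

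**Figure D1:**
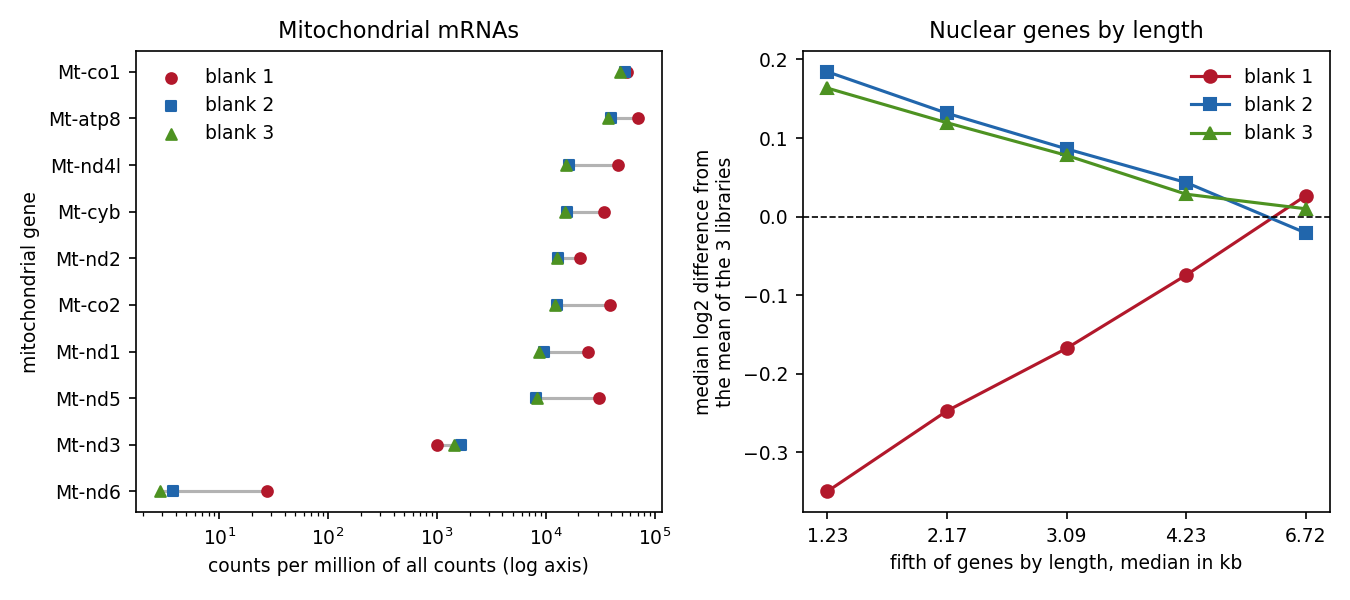
Left, CPM (log axis) in each blank library of the 10 mitochondrial entries with a symbol starting Mt-, summed by identifier (Mt-atp8 and Mt-nd4l pool several rows). Right, median log2 difference from the mean of the 3 libraries for nuclear genes in 5 classes by length: blank 1 rises from -0.35 at a median of 1.23 kb to 0.03 at 6.72 kb. Length is derived from counts over FPKM and holds up to a common factor.

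Contractile genes dominated the nuclear RNA. Acta1, the actin of skeletal muscle thin filaments, was the highest row in all 3 libraries, with 69764, 80862 and 80264 TPM in blanks 1, 2 and 3. Its row lies at chr19:51883715-51886742 of mRatBN7.2. It alone took 6.98 to 8.09% of nuclear TPM, and the 10 highest rows of each library took 32.6%, 29.8% and 28.9%. In blank 1 45 rows made up 50% of nuclear TPM, in blank 2 57 and in blank 3 63. At the other end, 11374 of 30481 nuclear rows reached 1 TPM in all 3 libraries and 785 reached 100 TPM, while 10411 of the 30518 deposited rows had no count in any.

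Ckm, muscle creatine kinase that regenerates ATP from phosphocreatine, came next by mean, with 22073, 40514 and 38467 TPM. Blank 1 lay below both other libraries for Ckm. Tnnt3, fast troponin T, had 56474, 21822 and 18262 TPM, so its rank was 2 in blank 1 but 7 and 10 in the other libraries. Myl11, the fast regulatory light chain of myosin (also listed as Mylpf), had 28424, 28194 and 28281 TPM, from a row at chr1:181829743-181832545. Its coefficient of variation of 0.411% was the lowest of all 1042 named rows with a mean of at least 100 TPM, for which the median was 25.9%.

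The first 8 rows by mean were completed by Myh2 (fast myosin heavy chain), Tpm1 (tropomyosin), Tnnc2 (fast troponin C) and Tnni2 (fast troponin I). The remaining places among the 20 highest included Myl1_v1 (fast essential light chain), Tpm2 (tropomyosin), Actn3 (the α-actinin of fast Z-discs), Tcap (a titin cap protein), Car3 (carbonic anhydrase), Eno3 and Pygm (muscle enolase and glycogen phosphorylase), Mb (myoglobin, which stores oxygen) and Pvalb (parvalbumin, which takes up calcium in fast fibres). Car3 was close to even at 9946, 10262 and 10387 TPM, as was Tnnc2 at 23590, 22503 and 22041. The rows AABR07005775.1, LOC103691235 and Gapdhl3 also belonged to the 20 and are given by the file's own symbols. LOC103691235 was the least even of the 20, with 3890, 24103 and 21855 TPM. Between blanks 2 and 3, 19 of the 20 highest rows were shared, and 16 were shared by all 3 libraries.

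**Figure D2:**
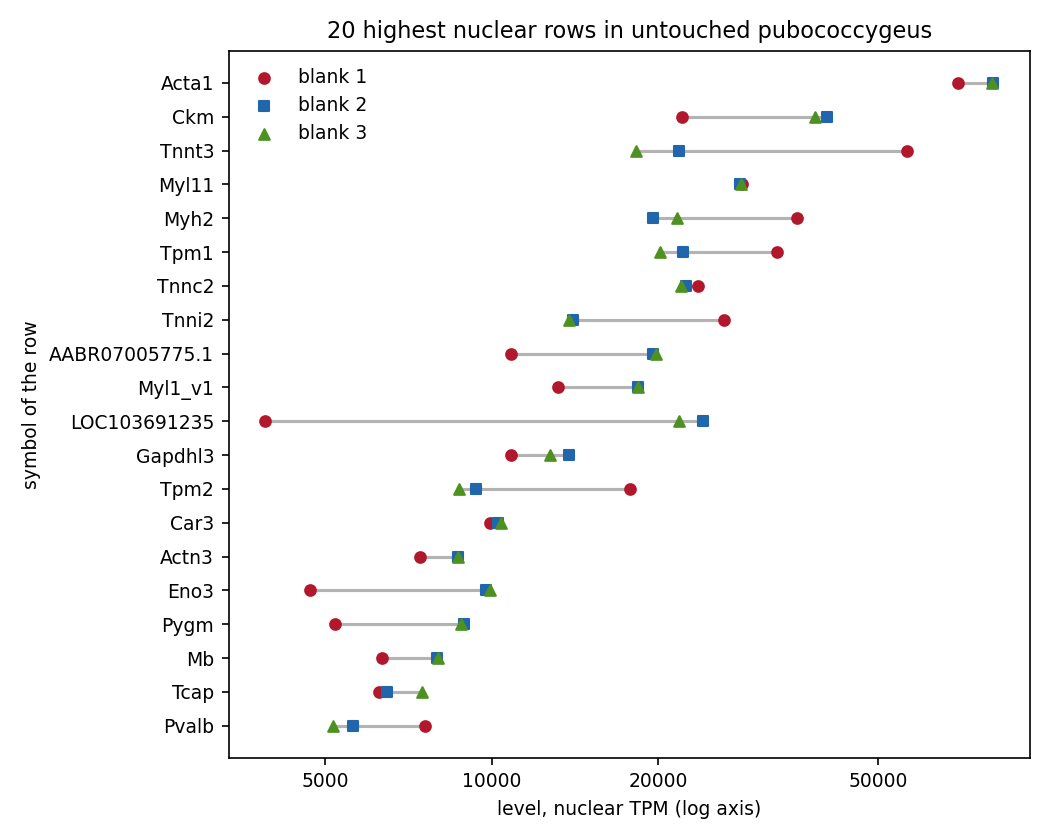
Level in nuclear TPM (log axis) of the 20 rows with the highest mean, with a point for each blank library and a grey line over their range. Blanks 2 and 3 lie close together in most rows, while blank 1 lies apart in Tnnt3, Tnni2, Tpm2, Eno3 and LOC103691235.

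The 120 bases before the annotated start are shown for 5 of these muscle genes. Whether transcription in this muscle begins at the annotated start was not tested, and the matches and distances given here depend on it. The 5 genes are those, among 11 promoters read, that hold TATAA on the strand of the gene. The other 6 (Tnnc2, Tnni2, Tnni1, Myh7, Eno3 and Pvalb) had no match on that strand within the window. All are RefSeq sequences of the GRCr8 assembly in the direction of the gene, with matches to TATAA (the core letters of a promoter element near the start of many genes) and to the CArG box (bound by serum response factor) in capitals. Acta1, highest of all, is at chr19:68784195-68784314 on the minus strand; Ckm at chr1:88189341-88189460, Myl11 at chr1:191260169-191260288 and the slow troponin gene Tnnt1 at chr1:78348915-78349034 are on the plus strand; Mb is at chr7:110647743-110647862 on the minus strand.
Acta1: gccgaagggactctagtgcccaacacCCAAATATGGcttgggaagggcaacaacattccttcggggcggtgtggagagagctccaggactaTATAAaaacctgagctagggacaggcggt
Ckm: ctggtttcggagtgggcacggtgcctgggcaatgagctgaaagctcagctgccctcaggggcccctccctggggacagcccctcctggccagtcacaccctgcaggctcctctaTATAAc
Myl11: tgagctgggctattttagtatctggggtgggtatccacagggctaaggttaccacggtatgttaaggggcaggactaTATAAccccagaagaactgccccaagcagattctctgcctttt
Tnnt1: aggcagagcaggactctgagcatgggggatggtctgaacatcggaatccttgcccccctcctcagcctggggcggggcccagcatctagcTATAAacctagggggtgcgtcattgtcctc
Mb: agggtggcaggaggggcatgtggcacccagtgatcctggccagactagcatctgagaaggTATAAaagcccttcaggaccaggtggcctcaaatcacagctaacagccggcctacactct

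TATAA began 29 bases before the start in Acta1, 6 in Ckm, 43 in Myl11, 30 in Tnnt1 and 60 in Mb. Only Acta1 of these 5 held a CArG box, which began 94 bases before the start, and it did not overlap the TATAA. Searched on both strands, TATAA occurred in 28 of the promoters of the 100 highest genes that matched the RefSeq table by symbol (28.0%), against 13.2% of all 24206 promoters of that length. CArG boxes occurred in only 3 of those 100 (3.00%), against 0.64% of all. For the other motifs searched, the E-box (letters CANNTG) gave 46.0% against 38.8%, and MEF2 gave 4.0% against 1.34%. A match is a match of letters in this window and says nothing of binding.

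Fast forms outweighed slow forms. Of 11 pairs of a slow and a fast gene, 10 could be matched, and in 9 of them the fast gene was higher in all 3 libraries on FPKM. The median slow share over the pairs was 8.68% in blank 1, 10.2% in blank 2 and 11.0% in blank 3, a mean of 9.97% ± 1.18, and 10.6% without blank 1. The exact sign-flip test of 3 libraries cannot go below 0.25, so no test was made. A lower share of slow fibres and less slow RNA per fibre cannot be told apart in these bulk samples, and the same holds for every cell type below.

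Myosin gave the same order. Myh7, the heavy chain of slow fibres, had 2442, 2032 and 2224 TPM. The higher of the rows with the symbol Myh2 had 35638, 19615 and 21634 TPM, so Myh7 made up 6.41%, 9.39% and 9.32% of this pair. A lower row, also with the symbol Myh2 and adjacent on chromosome 10, had 4145, 2020 and 2119 TPM. Which fast heavy chain gene each of these rows measures is not settled by the file, and the symbols Myh1 and Myh4 are not analysed here, so fast fibres were not divided into types. With both rows counted as fast, Myh7 took 5.78%, 8.59% and 8.56%.

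The light chains repeated it. Myl2, the slow regulatory light chain, had a mean of 1863 ± 255 TPM and took 6.17% ± 0.81 of its pair with Myl11. Myl3, the slow essential light chain, took 12.6% ± 3.08 of its pair with Myl1_v1, and here blank 1 was highest at 16.1%.

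In the troponin complex, which switches contraction on with calcium, slow shares differed by subunit. Tnnt1 took 12.5% ± 2.01 of troponin T, Tnni1 took 9.10% ± 3.33 of troponin I and Tnnc1 took 4.46% ± 1.35 of troponin C. Blank 1 was lowest in all 3 pairs, most in troponin I, where it had 5.30% against 10.5% and 11.5%. Tpm3, slow tropomyosin, took 12.2% ± 2.41 of its pair with Tpm1, although Tpm1 is also made in slow fibres and other cells. Casq2, the calsequestrin of slow and cardiac muscle, took 2.41% ± 0.62, the lowest share of all pairs.

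Myosin binding protein C was nearly balanced: slow Mybpc1 took 39.7%, 46.4% and 44.7% against fast Mybpc2. Myoz2 and Myoz1, which tether calcineurin at the Z-disc, were the exception to the fast order. Myoz2 took 57.4% in blank 1 but 21.0% and 24.3% in blanks 2 and 3. Myoz2 was higher in blank 1 (1328 TPM against 596 and 694) while Myoz1 was lower there (986 against 2240 and 2163).

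**Figure D3:**
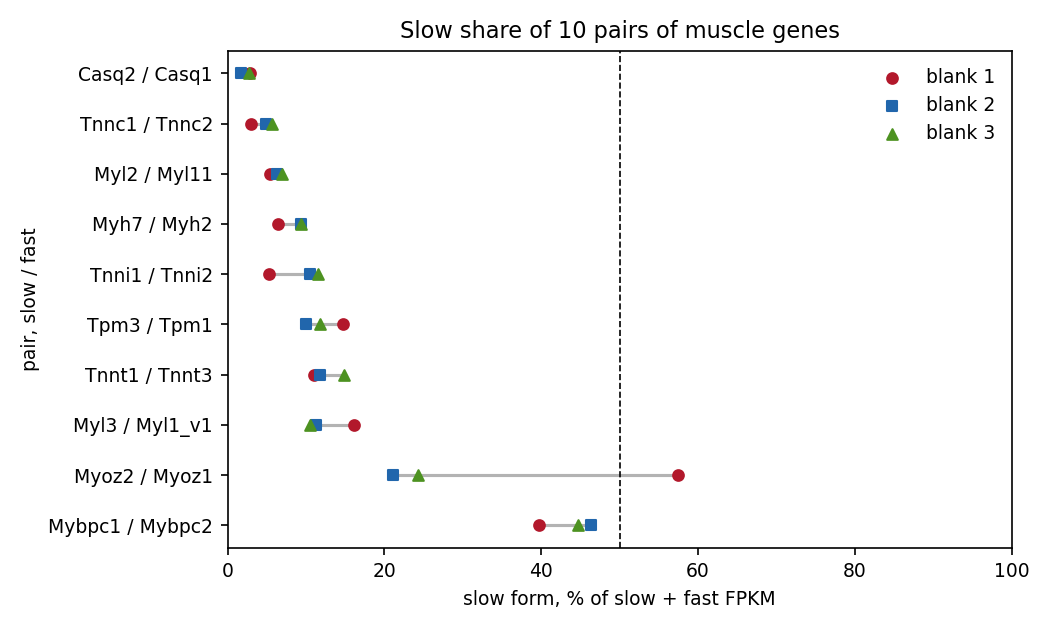
Slow gene as a percentage of the FPKM of slow plus fast gene, for 10 pairs, with a point for each blank library. The dashed line marks equal levels: only Myoz2 in blank 1, at 57.4%, lies to its right.

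Further heavy chains were present at lower levels. Myh8, the perinatal chain, had 339, 139 and 162 TPM, and Myh3, the embryonic chain, had 98.9, 26.2 and 29.1. Both were more than 2-fold higher in blank 1 than in either other library. Myh13, best known from the muscles that move the eye and from the larynx, had 71.2, 131 and 146 TPM and so had the opposite order. Myh6, the fast chain of the heart, had 195, 216 and 155 TPM. The other 4 genes listed as restricted to the heart stayed below 1 TPM in all libraries: Nppa (an atrial hormone) had no count, and Myl7, Tnni3 and Mybpc3 did not pass 0.441 TPM. Myh6 rests beside Myh7 in the genome and is similar in sequence, so its level is uncertain where reads could be divided between them. Actc1, cardiac actin, had 129, 37.3 and 119 TPM, with blank 2 lowest.

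Proteins of the sarcomere and its scaffold took 37.8%, 29.5% and 29.7% of nuclear TPM over 45 rows. All 21 scaffold genes passed 1 TPM in all 3 libraries. The giant Ttn (titin, the spring of the sarcomere) had 568, 402 and 438 TPM and Neb (nebulin, along the thin filament) 1292, 562 and 706. Des, the intermediate filament around the Z-disc, had 3397, 4425 and 4396 TPM. The leiomodin Lmod2, which lengthens thin filaments, had 2007, 280 and 355 TPM, and Lmod3 969, 305 and 252. Of the 21 scaffold genes, 4 were more than 2-fold higher in blank 1 and 0 more than 2-fold lower, where all rows gave 5.92% and 15.1%.

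Calcium handling genes of skeletal type were high. Ryr1, the release channel of the sarcoplasmic reticulum, had 537, 567 and 578 TPM, and its partner Cacna1s, the voltage sensor, had 345, 402 and 383. Casq1, which stores calcium there, had 4323, 3584 and 3396 TPM. All 16 matched genes of the list passed 1 TPM in all libraries. Sln (sarcolipin, an inhibitor of the calcium pump) was among the lowest, with 11.4, 7.56 and 28.8 TPM. Atp2a2, the slow calcium pump, had 464, 766 and 767 TPM, and the fast pump is not analysed here.

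Genes of glycogen breakdown and glycolysis were among the highest metabolic genes. Of 15 genes listed, 10 could be matched by symbol, and these summed to 19671, 33949 and 32284 TPM. The row Gapdhl3, with 10840, 13768 and 12766 TPM, is not in this sum, which is therefore partial. Eno3 had 4689, 9774 and 9915 TPM and Pygm 5205, 8916 and 8789. Pgam2, muscle phosphoglycerate mutase, had 3413, 5933 and 4993 TPM. Blank 1 lay below both other libraries in 8 of the 10 genes, where 54.3% of all rows did, and by more than 2-fold in 1, where 15.1% of all rows did. The median difference of blank 1 from the mean of the others was -0.67 log2 for this list and -0.23 for all genes. With TMM factors these became -0.46 and -0.02.

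Nuclear genes of respiration and of ribosomes were also low in blank 1. The rows of complex I took 0.819%, 0.972% and 0.951% of nuclear TPM, and ATP synthase took 0.796%, 1.44% and 1.42%. The 97 rows of cytosolic ribosomal proteins took 1.69%, 2.47% and 2.50%, and of the 82 with a mean of at least 1 TPM, 64 were lowest in blank 1, against 54.3% of all rows. The median difference of these ribosomal genes was -0.84 log2 by the nuclear total and -0.63 with TMM factors. The class of shortest genes as a whole was also low in blank 1, as given above.

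The mitochondrial genome ran the other way. It encodes subunits of complexes I, III and IV and of ATP synthase. Its rows were summed by identifier, which gave 10 entries with a symbol starting Mt-. The entries Mt-atp8 and Mt-nd4l pool 3 and 2 rows, so they may hold more than 1 gene. Of the 10 entries, 9 were higher in CPM in blank 1 than in both other libraries. Those 10 entries held 98.2 to 98.8% of mitochondrial counts. Mt-co1, a core subunit of complex IV, took 17.1% of mitochondrial counts in blank 1 against 31.2% and 30.0%, and in CPM it was 1.10 times the mean of blanks 2 and 3. Mt-co2, of the same complex, was 3.12 times that mean, Mt-nd5 3.77 times and Mt-nd6 8.28 times. Only Mt-nd3 was lower, at 0.64 times. The excess in blank 1 was therefore uneven within the mitochondrial genome. Mt-nd6 lies on the opposite strand from its overlapping neighbour Mt-nd5, and the sources used here do not say whether strand was used in counting, so the values of these genes cannot be told apart with certainty.

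In most pairs of related genes the form known from muscle was the higher. Of 31 pairs of a muscle form and another form, 25 could be matched, and in 22 the muscle form was higher in all 3 libraries. The largest mean ratios among pairs measured in all 3 libraries were those of Pygm over Pygb (the brain form), 11.3 ± 0.52 log2, and Ckm over Ckb, 10.9 ± 0.16. Such ratios rest on a low second gene, and adding 1 FPKM to both genes lowered Ryr1 over Ryr3 to 7.09 and Cacna1s over Cacna1c to 6.59. Without it, Ryr1 over Ryr3 gave 9.62 ± 0.57, Cacna1s over Cacna1c (the cardiac and smooth muscle channel) 9.59 ± 0.57 and Acta1 over Actc1 9.85 ± 1.08. Ckmt1 and Fbp1 were listed at 0 in 1 library each, so no mean ratio is given for their pairs. The pairs that varied least between libraries were Cpt1b over Cpt1a (entry of fatty acids into mitochondria), 5.10 ± 0.11, and Ampd1 over Ampd3 (AMP deaminases), 6.90 ± 0.13.

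Several ratios were smaller. Hk2 over Hk1 (hexokinases) gave 2.59 ± 0.31 log2 and Capn3 over Capn1 (calpains) 2.39 ± 0.39. Eef1a2, the elongation factor of mature muscle and neurons, exceeded Eef1a1 by 0.62 ± 0.31, and by 1.86 on counts not divided by length. Rpl3l, a ribosomal protein of striated muscle, exceeded Rpl3 by 3.50 ± 0.49. Prkag3, an AMP kinase subunit of fast fibres, exceeded Prkag2 by 2.11 in blank 1 and by 4.51 and 3.99 in blanks 2 and 3.

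The other form was higher in 2 pairs. Chrng, the fetal subunit of the acetylcholine receptor, had 59.5, 48.7 and 51 TPM, against 5.86, 18.7 and 14.0 for the adult subunit Chrne. Their log2 ratio of -2.20 ± 1.02 was thus below 0 in all 3 libraries. These are RNA levels of single rows. Other subunits of the receptor also differed widely, with Chrna1 at 2.05, 8.47 and 8.01 TPM and Chrnb1 at 76.4, 60.0 and 80.8. Which form of the receptor was assembled was not tested. Cox7a1 over Cox7a2 gave -3.37 ± 0.65 (-1.52 on counts not divided by length), but both rows were low (means of 2.63 and 25.9 TPM) and the file holds further rows with related symbols, so this pair is uncertain. Myod1 over Myog, regulators of myogenesis, had no fixed order, with 0.60, -0.52 and -1.07.

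**Figure D4:**
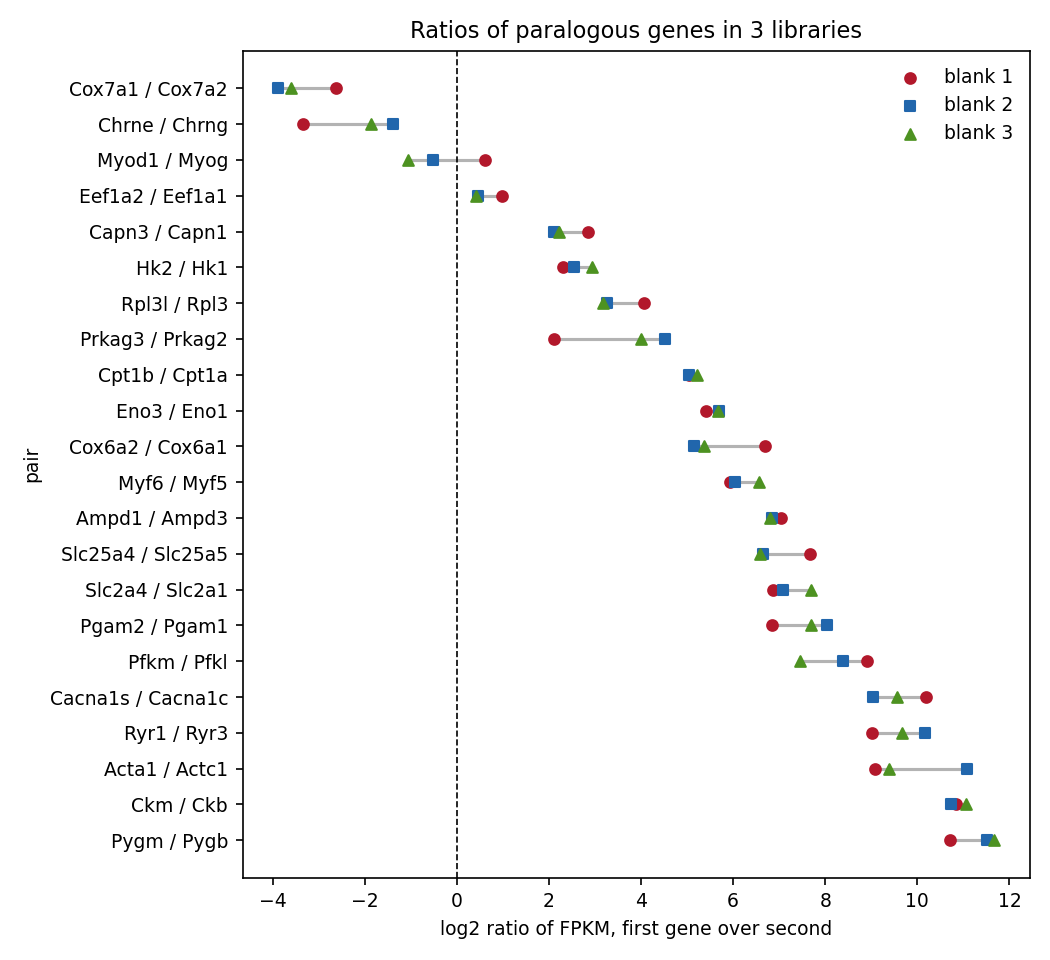
Log2 ratio of FPKM for 22 pairs of related genes, first gene over second, with a point for each blank library. The dashed line marks equal levels. Cox7a1 over Cox7a2 and Chrne over Chrng lie below it in every library, and Myod1 over Myog falls on both sides.

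Markers of other cell types were present and were led by connective tissue and blood. Of 142 matched markers in 19 lists, 81 reached 1 TPM in all 3 libraries, where 37.3% of all nuclear rows did. The 11 markers of fibro-adipogenic progenitors summed to 1281, 1394 and 1575 TPM and all passed 1 TPM. Dcn (decorin) had 453, 614 and 659 TPM, Col3a1 (a collagen chain) 314, 281 and 389, and Lum (lumican) was almost even at 69.5, 71.3 and 70.6. Pdgfra, the receptor that defines these cells, had 8.33, 8.59 and 10.6 TPM.

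Vessel markers passed 1 TPM in all libraries. The 10 endothelial markers summed to 281, 262 and 183 TPM, with Pecam1 at 55.2, 57.4 and 44.7 and Cdh5, the cadherin of endothelial junctions, at 113, 56.2 and 39.9. Blank 3 was lowest in 6 of the 10 and blank 1 in 3, including the junction gene Cldn5 (8.56, 33.1 and 23.1). Pericyte and smooth muscle markers summed to 506, 439 and 313 TPM. Blank 3 was lowest in 7 of these 10 genes, such as the smooth muscle actin Acta2 (106, 81.0 and 37.4 TPM), and blank 1 in 2, such as Notch3 (4.66, 12.4 and 8.20). The 5 red cell markers that could be matched, of 10 listed, summed to 3154, 2502 and 685 TPM, again with blank 3 lowest. Nearly all of that sum came from the globin gene Hba-a2 (3083, 2411 and 660). The globin row Hbbl1, outside the list, had another order, with 363, 1773 and 482 TPM.

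For nerve, markers of Schwann cells were higher than those of neurons. Schwann cell markers summed to 172, 263 and 136 TPM, with blank 2 highest. Of 9 neuronal genes, 4 (Nefl, Syt1, Chat and Elavl4) had no count in any library, and the sum was 6.13 to 10.7 TPM, nearly all from Prph and Stmn2. RNA of motor neurons lies mostly in the spinal cord, outside the muscle.

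Macrophage markers were the highest of the lists for white blood cells. The 9 genes summed to 159, 299 and 376 TPM, and 6 of them were highest in blank 3, among them the complement gene C1qb at 16.5, 40.6 and 70.8. Cd68 (13.4, 6.52 and 8.26 TPM) and the scavenger receptor gene Cd163 (11.6, 6.81 and 10.1) were highest in blank 1, and Lyz2 (lysozyme, 41.0, 135 and 125) in blank 2. T cell markers summed to 0.924 to 2.38 TPM and B cell markers to 0.708 to 1.06, and none of these 11 genes reached 1 TPM in any library. Mast cell markers summed to 12.2 to 16.3 TPM. Neutrophil markers summed to 4.13, 13.6 and 4.63 TPM, with blank 2 highest.

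Satellite cell markers were low, with sums of 28.9, 34.7 and 32.5 TPM. The members differed more than the sum: Cdh15 (a cadherin) had 4.11, 8.74 and 11.3 TPM and Chrdl2 11.0, 7.33 and 4.37. Pax7, the factor that defines these cells, had 0.846, 0.873 and 0.613 TPM. Adipocyte markers summed to 301, 511 and 409 TPM. Adiponectin (Adipoq) had 16.4, 30.4 and 5.08, and Ucp1 of brown fat had no count.

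Markers of tendon and bone differed between libraries. Tendon markers summed to 39.0, 99.7 and 165 TPM. Thbs4 had 10.2, 35.4 and 67.9 TPM, Fmod (fibromodulin) 2.54, 21.7 and 35.2, and Tnmd (tenomodulin, which defines tendon cells) 0, 2.79 and 9.29. Of the 8 tendon markers, 5 were more than 2-fold lower in blank 1, against 15.1% of all rows, and their median difference of blank 1 from the mean of the others was -1.96 log2 (-1.75 with TMM factors). Bone and cartilage markers summed to 50.3, 28.5 and 52.5 TPM. Their bone gene Ibsp was highest in blank 1, with 17.4, 1.19 and 2.44, and the cartilage collagen Col2a1 highest in blank 3, with 2.44, 0.840 and 6.86.

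Markers of epithelium and of the lining of the body cavity were at or near 0, with 1 exception. Of 11 matched epithelial genes, 10 stayed under 1 TPM in all libraries and 4 had no count. The keratins found (Krt4, Krt5, Krt8, Krt13 and Krt18) and Epcam and Cdh1 did not pass 0.68 TPM in any library. The epithelial sum of 20.1, 9.47 and 12.1 TPM came almost wholly from Tp63 (19.1, 8.12 and 11.0 TPM), a factor also made outside epithelium. Mesothelial markers summed to 0.358 to 1.08 TPM.

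**Figure D5:**
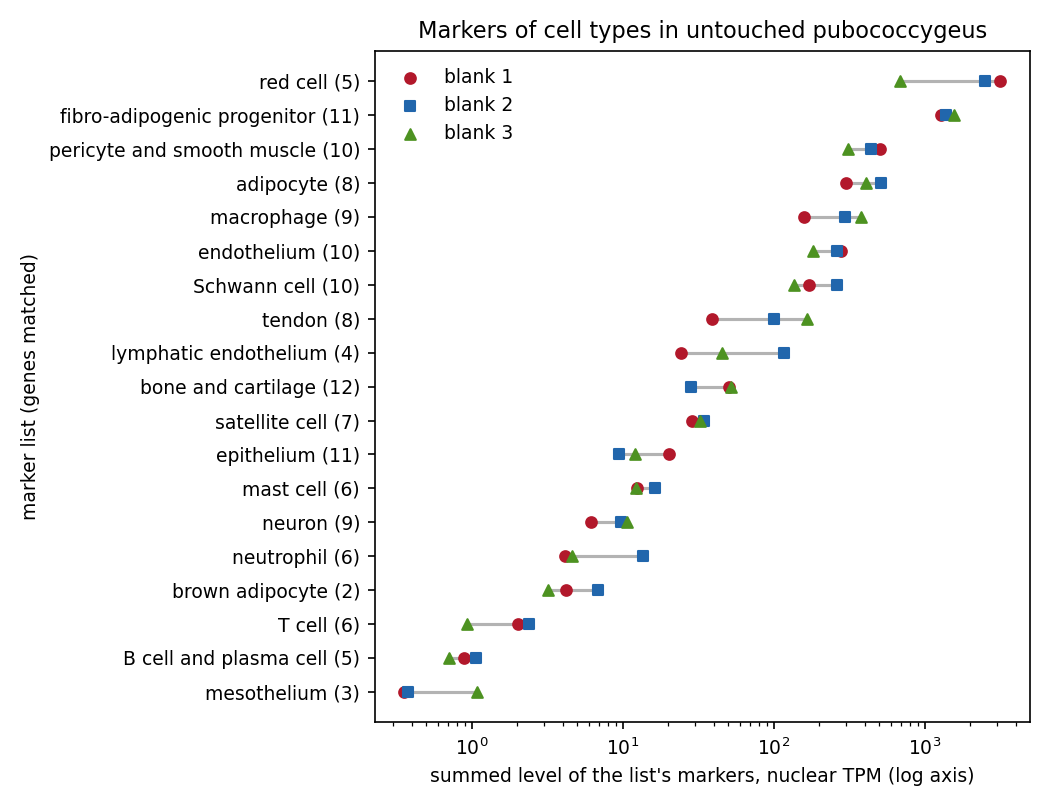
Summed level in nuclear TPM (log axis) of the matched markers of 19 cell types, with the number of genes in brackets and a point for each blank library. Red cell and fibro-adipogenic progenitor markers are highest, and tendon, lymphatic and red cell markers spread most among lists above 20 TPM.

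Regulators of muscle identity were measured at moderate levels. All 19 matched transcription factors passed 1 TPM in all libraries. Mef2c, an activator of muscle genes, had 443, 141 and 192 TPM, Tbx15, which favours glycolytic fibres, 129, 111 and 111, and Myf6, the regulator kept on in adult fibres, 98.1, 101 and 219. Ppargc1a, the activator of mitochondrial genes, was low at 15.4, 7.07 and 7.94. In blank 1, 6 of these 19 were more than 2-fold higher than in both other libraries and 0 more than 2-fold lower, against 5.92% and 15.1% of all rows.

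Homeobox genes mark position along the body. Those listed came mostly from groups active towards the tail, so the list cannot show which groups lead among all homeobox genes. Hoxc10, Hoxa10 and Hoxd9 were the highest by mean among the positional genes listed. Hoxc10 had 91.2, 43.3 and 39.4 TPM, Hoxa10 31.3, 33.7 and 33.9 and Hoxd9 21.5, 39.8 and 35.1. The hindlimb genes Tbx4 and Pitx1 and the forelimb gene Tbx5 did not pass 0.224 TPM. Hoxd13, of the group active nearest the tail, did not pass 0.177 TPM. Of the 9 positional genes with a mean of at least 1 TPM, 4 were more than 2-fold higher in blank 1 and 0 lower, against 5.92% and 15.1% of all rows.

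Steroid receptors, which bind hormones and in most cases act as transcription factors, were mostly low. The glucocorticoid receptor Nr3c1 was the highest of the 7 steroid receptor genes, with 45.9, 29.9 and 31.5 TPM. The mineralocorticoid receptor Nr3c2 had 10.5, 6.95 and 8.94. The oestrogen receptor Esr1 had 4.77, 2.23 and 4.05 TPM, while Esr2 had 0, 0.0308 and 0.0282. The progesterone receptor Pgr (0.226, 0.343 and 0.0998) stayed under 1 TPM.

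At the nerve-muscle junction, Ache (which breaks down acetylcholine) had 84.9, 109 and 91.3 TPM and the receptor subunit Chrnb1 76.4, 60.0 and 80.8. Chrna1, the subunit that binds acetylcholine, was lower, at 2.05, 8.47 and 8.01. Dok7, which activates the junction's organiser, had 8.66, 24.8 and 21.0, and Musk, that organiser, 1.06, 0.971 and 1.33. Of 12 matched genes, 3 were more than 2-fold lower in blank 1 and 0 higher, not far from the 15.1% and 5.92% of all rows. By any amount, 9 of the 12 were lowest in blank 1, where 54.3% of all rows were. The median difference of blank 1 from the mean of the others was -0.83 log2 for this list and -0.23 for all genes. With TMM factors these became -0.62 and -0.02.

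Among secreted factors, Vegfa (vessel growth) had 306, 255 and 276 TPM, Igfbp5 (which binds insulin-like growth factors) 194, 138 and 138, and Fndc5 (the precursor of irisin) 99.8, 127 and 106. Mstn, myostatin, which limits muscle growth, had 17.0, 7.40 and 19.2 TPM. Il6 (a cytokine) had 0, 0.0716 and 0 TPM and Fgf21 did not pass 0.263 TPM.

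Single genes marked each library. The genes farthest above both others in blank 1 were Y_RNA (small non-coding RNAs), at 56.7 TPM with no count elsewhere, Fam111a (18.4 against 0.205 and 0.158), the ribosomal RNA rows LOC120102105 (5702 against 249 and 89.4) and LOC120099695 (5624 against 247 and 88.7), and the pseudogene Ndufs5-ps1 (63.5 against 2.59 and 2.91). Farthest below were a row of Fcer1g (0.971 against 379 and 313), a minor row of Rpl4, Jpt1 (0.156 against 18.6 and 28.1), Rps21-ps1 and LOC297756. The file has 2 rows under the identifier of Fcer1g, and their sum was 256, 517 and 489 TPM, so the sum differed between libraries far less than the single row.

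Blank 2 held Retnlg (14.3 TPM against 1.77 and 0.893), best known from neutrophils, Hbbl1 (1773 against 363 and 482) and Plac8 (13.0 against 2.50 and 3.93) among its 5 farthest above, with Ttc7a and a row of LOC120096281. Farthest below were the stretch-responsive gene Ankrd1 (4.85 against 44.0 and 31.3), Actc1, Slk, Eda2r and another row of LOC120096281. The neutrophil sum given above was also highest in blank 2.

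Blank 3 was set apart by Car12 (63.5 TPM against 1.63 and 4.22), Irak2 (28.9 against 1.55 and 4.47), Mir133b (32.3 against 3.36 and 6.83), Foxo1 (81.8 against 15.6 and 17.9) and Fkbp5 (120 against 15.9 and 26.6). Car12 is a carbonic anhydrase, Foxo1 a transcription factor of fasting and muscle breakdown, and Fkbp5 a co-chaperone of the glucocorticoid receptor that glucocorticoids induce. Farthest below were S100g (0 against 10.9 and 21.4), the signal recognition particle RNAs Rn7sl1 (1.13 against 82.2 and 14.8) and Metazoa_SRP (1.41 against 81.0 and 14.4), Scd (stearoyl-CoA desaturase, 1.48 against 15.7 and 28.8) and C8h3orf62 (2.25 against 22.9 and 29.8). Among listed genes, and picked after their values were seen, Csrp3 (862, 467 and 2716 TPM), Cryab (876, 1558 and 2834), Flnc (265, 347 and 707) and Ankrd2 (415, 166 and 541) were also highest in blank 3, whereas Xirp2 (901, 288 and 322) and Ankrd1 were highest in blank 1. The blank 3 level was 5.82 times that of blank 2 for Csrp3.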

How the data were processed

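Per the submitters' processing notes, Bowtie2, RSEM 1.3.1, DESeq2 1.4.5 and the build mRatBN7.2 were used. Neither their order nor any use of strand is stated there. The expected counts deposited by the authors are whole numbers, apparently rounded up, as 101 values of 1 have an FPKM under 0.001. The authors deposited FPKM for the same 30518 rows, of which 4341 have no symbol. Coordinates in the tables are those of the deposited build, and promoters are those of GRCr8.

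Nuclear TPM and ratios were computed from FPKM with Python 3.11.15, adding 0.1 before log2 of a library's difference. TMM factors came from edgeR 4.0.16. Of rows sharing a symbol, the one with most counts was used, but mitochondrial rows were summed by identifier. Named by rule were the 20 highest rows, the mitochondrial genes, the members of gene lists and pairs, and the 5 genes with a mean of at least 5 TPM farthest above and below in each library. Members, lists and rules were chosen with earlier results of these data known. Alternatives changed the threshold, pseudocount, scaling, unit and libraries. Some members of the lists and pairs are counted but not reported here by name.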

Additional observations from a re-analysis of the deposited data

How the results depend on the processing

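No paired analysis was possible because the 3 libraries form a single group and no comparison between groups was made. At a threshold of 10 TPM in place of 1 TPM, 5366 rows were measured in all 3 libraries (11374 at 1 TPM). The 20 highest nuclear rows of each library took a mean of 39.4% of nuclear TPM and 35.6% of nuclear CPM. On FPKM as deposited the mean was 52.7%, but there mitochondrial rows were included, so it covers another set of rows. Mitochondrial genes took 35.6% of FPKM against 22.1% of counts. The slow share was 8.34% on counts not divided by length and 14.6% as a mean over pairs (9.97% as a median on FPKM). The mean share of rows past 2-fold over the 3 pairs of libraries was 19.7%, and leaving out each library in turn gave 4.12 to 28.1%, the lowest without blank 1. Myod1 over Myog gave -0.80 to 0.0395 log2 with each library left out (-0.33 with all), and turned positive without blank 3. The muscle form was also higher in 22 pairs on counts not divided by length. The other alternatives for that count could not have lowered it. Adding the same amount to both genes keeps their order, and leaving out a library only loosens the rule. Chosen after seeing the data, the longest of 5 length classes alone left 5.76% of rows more than 2-fold lower in blank 1. With 50833480 counts, blank 1 gives the least precise values for low genes, and 3 libraries limit every SD.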
